A study of Bos taurus with 2 samples.

Results

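A set of 3 gene identifiers with models of myosin heavy chain length was followed in the longissimus muscle of Qinchuan beef cattle, from an embryonic to an adult stage. They were ENSBTAG00000018204, named MYH1 in the rule that chose them, ENSBTAG00000007090, named MYH2 there, and ENSBTAG00000009702, which that rule left without a name. They are 3 of the 16174 genes with at least 1 read. The first 2 were listed with a name, and ENSBTAG00000009702 was taken because its reads were far more frequent in the embryo. All 3 were chosen with earlier results of these data known, so their levels are given as a description. A length of 5500 to 6300 nt was required as a check. The models measured 5987 nt for MYH1, 6096 nt for MYH2 and 5934 nt for ENSBTAG00000009702, and none of the 3 was dropped. The model nearest to an edge, that of MYH2, lay 204 nt inside it.

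The group labelled Emb135, called embryonic here only after that label, was sampled 135 days after insemination. The adult group (30M) was sampled 30 months after birth. Each was 1 library of polyadenylated RNA pooled from 3 animals, with 17736812 unique reads in Emb135 and 19970007 in 30M. Neither group carried a treatment in its labels, and both give the tissue as longissimus muscle. With 1 library a stage, differences between animals are averaged within a pool and no test between stages was possible. All intervals below are exact 95% intervals for the counting of independent reads. They do not cover differences between animals or library preparations. In pooled bulk muscle, fewer cells of a type and less RNA per cell cannot be told apart. The tables pair no identifier with a name, so the labelled tissue was not checked against marker genes.

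Myosin heavy chains are the motor proteins of the thick filament. They bind actin, split ATP and set how fast a fibre shortens. Mammalian skeletal muscle has a family of sarcomeric forms that replace one another as fibres mature. Developmental forms (MYH3, embryonic, and MYH8, perinatal) are used before birth, and adult fibres use a slow form (MYH7) or fast forms (MYH2, type IIa; MYH1, type IIx; MYH4, type IIb). In the RefSeq gene table of assembly ARS-UCD2.0, 6 sarcomeric heavy chain genes lie together on 1 chromosome in the order MYH13, MYH8, MYH4, MYH1, MYH2 and MYH3. A further protein-coding gene, LOC132343045, lies between MYH4 and MYH1, and MYH1 and MYH2 are direct neighbours. That table holds no Ensembl identifier, so neither the 2 names nor an identity for ENSBTAG00000009702 could be checked against it. The coding sequences of these genes are much alike. The authors counted uniquely placed reads only, which may undercount near-identical copies by an amount the tables do not show.

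ENSBTAG00000009702 was the leading one of the 3 in the embryo and the lowest in the adult. It had 71043 reads in Emb135 and 23 in 30M. Its RPKM (reads scaled by model length and by the library's unique reads) was 675.0 in Emb135 (interval 670.0 to 680.0) and 0.194 in 30M (0.123 to 0.291). It took 0.401% of all Emb135 reads (0.398 to 0.403%), which was the 20th most reads of any gene. By RPKM, which does not favour long models, it stood 156th of the 15522 genes with a read in that library. In 30M it took 0.000115% of the reads and stood 11855th by reads and 13314th by RPKM of 14853 genes with a read. The level in the embryo was 3478 times that in the adult, with an interval of 2318 to 5486. The width of that interval comes from the 23 adult reads. On the log2(RPKM + 0.5) scale, on which the pseudocount shrinks differences of low genes, the difference was -9.93. Of the 12763 genes whose RPKM reached 1 in at least one library, 1 had a lower value. The gene was chosen on this contrast, so nothing is read from that place.

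MYH2, by its name the fast type IIa chain, was already well expressed in the embryo and was higher in the adult. It had 4629 reads in Emb135, an RPKM of 42.8 (41.6 to 44.1), and 25349 reads in 30M, an RPKM of 208.2 (205.7 to 210.8). Its RPKM was 6.88 times the median of detected genes in Emb135 and 44.5 times that median in 30M. By reads it stood 487th in Emb135 and 77th in 30M, where it took 0.127% of the library, and by RPKM 1771st and 337th. The adult level was 4.86 times the embryonic level (4.71 to 5.02), a log2 difference of 2.27. Of the 12763 genes, 4.40% had a higher log2 difference.

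MYH1, by its name the fast type IIx chain, was low at both stages. It had 98 reads in Emb135, an RPKM of 0.923 (0.749 to 1.12), and 331 reads in 30M, an RPKM of 2.77 (2.48 to 3.08). Both values lay below the median RPKM of detected genes, which was 6.22 in Emb135 and 4.68 in 30M. By RPKM it stood 12245th in Emb135 and 9082nd in 30M, and by reads 10131st and 5649th. The adult level was 3.00 times the embryonic one (2.39 to 3.80), and the log2 difference was 1.20 with the pseudocount of 0.5. MYH1 is known as a chain of adult fast fibres, and the adult library held 75.2 times as much MYH2 RPKM as MYH1 RPKM. How many MYH1 reads the counting of unique reads left out was not tested, and the name of this identifier was not checked.

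**Figure D1:**
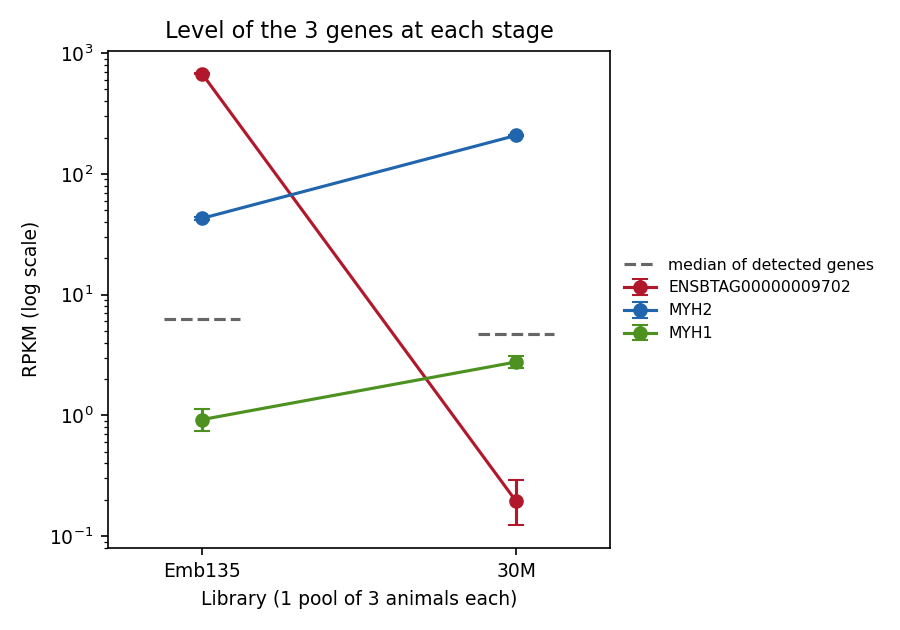
RPKM on a log axis (vertical) of the 3 genes in the Emb135 and 30M libraries (horizontal). Points are the deposited values, bars the exact 95% counting intervals, lines join the 2 libraries, and dashes mark the median of detected genes. ENSBTAG00000009702 passes from the top in Emb135 (675.0) to the bottom in 30M (0.194), while MYH2 lies above the median and MYH1 below it in both libraries.

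A gene was called by size when its log2(RPKM + 0.5) differed by 2-fold or more between stages, it reached an RPKM of 1 where it was higher, and its counting interval excluded equality. By this rule MYH1 and MYH2 were higher in 30M, as were 13.0% of the 12763 genes. ENSBTAG00000009702 was lower, as were 32.6% of them. It was chosen on this contrast, so nothing is read from its call. MYH2 kept its call at 4-fold, under the 4 scalings and with the pseudocounts of 0.1 and 1 or none. The call of MYH1 was lost with a pseudocount of 1 (log2 difference 0.97) and at 4-fold. Raising 30M by the median ratio of genes detected in both libraries, a factor of 1.40, put MYH2 at 6.79 times and MYH1 at 4.19 times its embryonic level. The same rescaling put ENSBTAG00000009702 at 2492 times its adult level in the embryo. Under that scaling 20.0% of genes were higher and 21.0% were lower.

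The order of the 3 genes within a library does not depend on the scaling between libraries. In Emb135 ENSBTAG00000009702 made up 93.9% of their summed RPKM, MYH2 5.96% and MYH1 0.128%. The summed RPKM of the 3 was 718.7. In 30M MYH2 made up 98.6%, MYH1 1.31% and ENSBTAG00000009702 0.0919% of a sum of 211.2. The order in the embryo was thus ENSBTAG00000009702, MYH2, MYH1, and in the adult MYH2, MYH1, ENSBTAG00000009702. No intervals of neighbours in either order overlapped. The leading place in the embryo and the drop in the adult follow from how ENSBTAG00000009702 was chosen. Together the 3 took 0.427% of the reads in Emb135 (75770 reads) and 0.129% in 30M (25703 reads), and the lower adult sum comes from ENSBTAG00000009702, so it too follows from that choice.

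**Figure D2:**
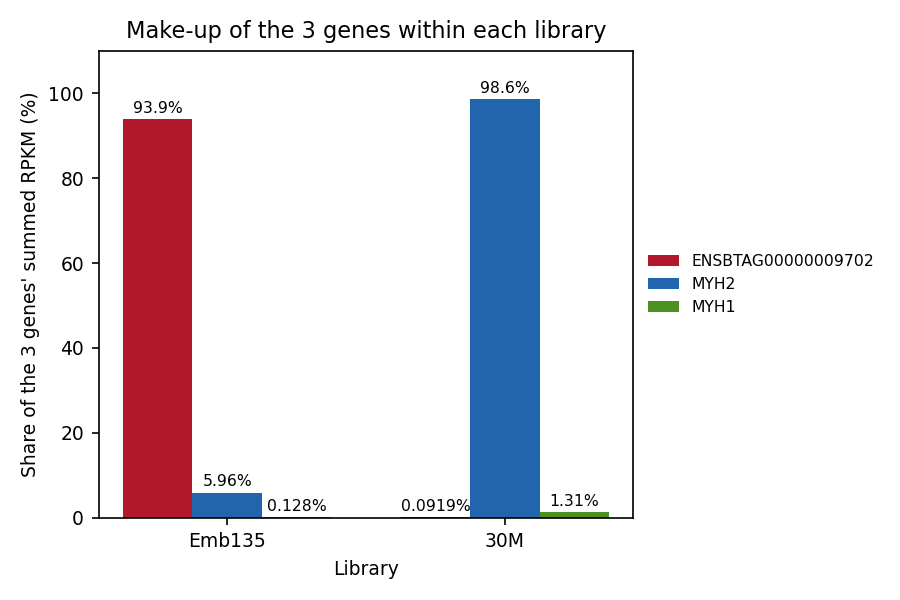
Share of the summed RPKM of the 3 genes, in percent (vertical), taken by each gene in each library (horizontal), as bars from 0 with the value above. ENSBTAG00000009702 holds 93.9% in Emb135 and MYH2 holds 98.6% in 30M.

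Pairs of genes within a library showed the size of the change in order. In Emb135 the RPKM of ENSBTAG00000009702 was 15.8 times that of MYH2 (15.3 to 16.2) and 731.4 times that of MYH1 (600.1 to 901.0). In 30M MYH2 stood at 1073 times ENSBTAG00000009702 (714.8 to 1693), and MYH1 at 14.3 times it (9.34 to 22.8). The lowest of the 3 in the embryo was therefore above the embryo's leading gene in the adult. ENSBTAG00000009702 was chosen for its excess in the embryo, so nothing is read from its change of place. MYH2 and MYH1, whose names were not checked, kept their order. The ratio of MYH2 to MYH1 was 46.4 in Emb135 (38.0 to 57.3) and 75.2 in 30M (67.5 to 84.1). As a share of the reads of MYH1 and MYH2 together, MYH1 had 2.07% in Emb135 (1.69 to 2.52%) and 1.29% in 30M (1.15 to 1.43%). The counting intervals of that share did not overlap, but they cover counting error only. How often other gene pairs differ as much was not tested. The share is free of the scaling between libraries, but not of reads lost by unique counting, whose effect on it was not tested.

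The coverage column gives the part of each model with at least 1 read, and it did not itself enter the choice of the genes. It rises with the number of reads, on which ENSBTAG00000009702 was chosen, so its stage contrast in coverage is not separate from that choice. Reads were 90 nt long, as found from genes with a single read. In Emb135 ENSBTAG00000009702 was read over 99.98% of its model, with a mean depth of 1077.5 reads per base. In 30M its 23 reads covered 25.8%, or 1531 nt. If each read had fallen at random, with equal chance along the model, 29.6% would be covered, and without any overlap 34.9%. Such random placement is called even placement here, and the ends of the models were not allowed for. The adult reads hold 2070 nt in all, of which 539 nt fell on bases already read, against 311.3 nt for even placement.

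MYH2 was covered over 98.97% in Emb135 and 99.59% in 30M, which left 63 nt and 25 nt unread at mean depths of 68.3 and 374.2. MYH1 was covered over 67.15% in Emb135, against 77.3% for even placement, and over 91.05% in 30M, against 99.3%. In the adult 536 nt of the MYH1 model had no read, where even placement would leave 39.8 nt. Such a shortfall was common. Among the 97 models of 5500 to 6300 nt in Emb135 with an even expectation under 99.9%, 85 were covered less than expected, and the median difference over the 97 was -6.50 percentage points. In 30M 85 of 94 were covered less than expected, and the median over the 94 was -5.88 points. MYH1 differed by -10.2 points in Emb135 and -8.29 points in 30M, and ENSBTAG00000009702 by -3.84 points in 30M. Which parts of the models were unread is not given in the tables.

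**Figure D3:**
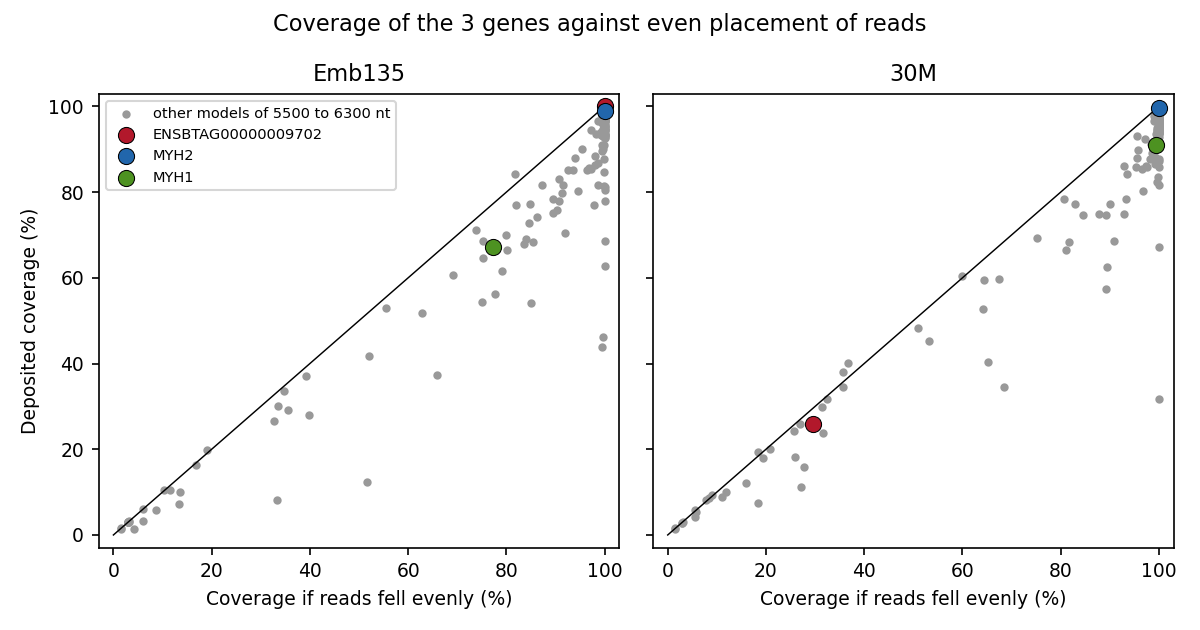
Deposited coverage in percent (vertical) against the coverage that evenly placed reads would give, in percent (horizontal), for gene models of 5500 to 6300 nt in Emb135 (left) and 30M (right). Even placement here is random, with equal chance along the model. The line marks equality. MYH1 lies under it in both libraries, at 67.15% and 91.05%, and ENSBTAG00000009702 lies close to it in 30M, at 25.8%.

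Other heavy chain genes could not be looked up by name, so the 3 were set among all 226 gene models of 5500 to 6300 nt, which are not a gene family. Of the 196 that reached an RPKM of 1 in either library, 37 (18.9%) were higher in 30M and 48 (24.5%) were lower. Their median log2 difference was -0.34, against -0.53 over all genes. At 16-fold or more, 3 of them (1.53%) were higher in 30M and 4 (2.04%) lower, ENSBTAG00000009702 included, against 0.862% and 1.38% of all 12763 genes. ENSBTAG00000009702 had the second highest RPKM of these models in Emb135 and stood 193rd of 216 detected in 30M. MYH2 went from 17th to 3rd, and MYH1 from 189th to 143rd. The 3 held 16.3% of the reads of all these models in Emb135 and 2.13% in 30M. ENSBTAG00000009702 was chosen for its excess in the embryo, so nothing is read from this fall. The adult share also depends on a single model. All these models together took 6.04% of the 30M reads, and 1.72% without the model that had the most adult reads.

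Most of the adult reads in this length class belonged to a single model, ENSBTAG00000009703, which was singled out after its values were seen. It is 5916 nt long and had 25208 reads in Emb135, an RPKM of 240.2, and 862348 reads in 30M, an RPKM of 7299. In 30M it took 4.32% of the library (4.31 to 4.33%), the third most reads of any gene, and it was covered over 98.04%. Its adult level was 30.4 times its embryonic level, a log2 difference of 4.92. In Emb135 its RPKM was 5.61 times that of MYH2 (5.44 to 5.79), and in 30M 35.1 times (34.6 to 35.5). In Emb135 ENSBTAG00000009702 was 2.81 times as high as ENSBTAG00000009703 (2.77 to 2.85). Of the RPKM of these 4 models together, ENSBTAG00000009703 made up 25.1% in Emb135 and 97.2% in 30M, where MYH2 made up 2.77%. The lead of MYH2 in the adult therefore holds among the 3 chosen genes and not among models of this length. No name was matched to ENSBTAG00000009703.

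**Figure D4:**
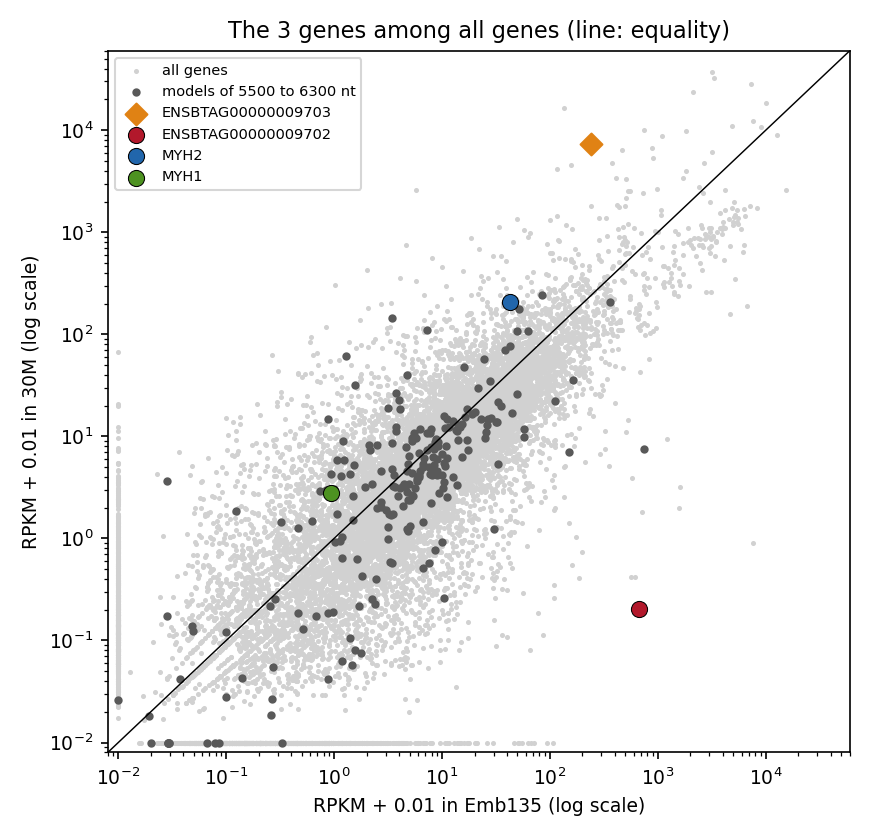
RPKM + 0.01 in 30M (vertical) against RPKM + 0.01 in Emb135 (horizontal), both on log axes, for all genes (light points), models of 5500 to 6300 nt (dark points), the 3 genes (coloured circles) and ENSBTAG00000009703 (diamond). The line marks equality. ENSBTAG00000009702 lies far under the line, and MYH1, MYH2 and ENSBTAG00000009703 lie above it.

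The gene whose stage difference was nearest to that of each of the 3 was sought among 6724 other genes that reached an RPKM of 10 at one stage or both. Likeness was the absolute distance between log2 differences, which with 2 libraries is a single number. ENSBTAG00000009702 had 0 genes within 0.1, but it was chosen for a large difference, so nothing is read from this. The nearest was ENSBTAG00000002066, a shorter model of 612 nt. Its RPKM was 618.9 in Emb135 (6718 reads) against 0.409 in 30M (5 reads), a distance of 0.51. That distance depends on the pseudocount, as both genes had few adult reads. Without it the embryonic level was 3478 times the adult one for ENSBTAG00000009702 and 1513 times for ENSBTAG00000002066. MYH2 had 54 genes within 0.1, and the nearest was ENSBTAG00000018598, whose RPKM was 525.4 in Emb135 against 2538 in 30M. MYH1 had 135 within 0.1, the nearest being a model of 5834 nt with RPKM values of 24.4 (Emb135) and 56.8 (30M). This likeness rests on the pseudocount, which shrinks the difference of MYH1. Without it the adult level of that model was 2.32 times its embryonic level, against 3.00 times for MYH1 (2.39 to 3.80).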

How the data were processed

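The authors deposited 1 table per library. Per the file headers, each gives a count of uniquely assigned reads per Ensembl gene, the model length, the coverage signal (percent of the model read) and the authors' RPKM. Recomputing RPKM from counts, lengths and header totals gave a relative error of at most 2.2e-14. The sources used here name no aligner, counting tool, genome build or annotation, so these are not given. A gene missing from a table was taken as 0 reads. Per the labels' protocols, RNA of 3 animals per stage was pooled, and no strand marking is mentioned, so overlapping genes may be mixed.

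Levels were compared as log2(RPKM + 0.5). Intervals are exact (Clopper-Pearson) 95% intervals of reads. They treat PCR copies as independent molecules. Calls used all genes and the rule of size given with the results. The rule was run on simulated counts with counting error only. These held no differences between animals or libraries, so they cannot show how calls would hold across such differences. The alternatives were 4 scalings, 2 pseudocounts and none, a 4-fold threshold, ranks by RPKM, shares by reads and thinning of 30M. The genes named were the 3 chosen, the nearest by log2 difference and ENSBTAG00000009703, which was picked after its values were seen. At most 2 unnamed identifiers per direction were printed, so the gene nearest to MYH1 is given without its identifier. The genes and lists were chosen with earlier results of these data known. Lists of other sarcomere genes and cell type markers needed names and were not analysed here. Sequences were not used here. Python 3.11.15, scipy 1.17.1 and pandas 2.3.3 were used.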

Additional observations from a re-analysis of the deposited data

How the results depend on the processing

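No alternative turned the direction of any of the 3 genes. The log2 difference of ENSBTAG00000009702 (-9.93) was -11.16 with a pseudocount of 0.1, -9.14 with 1 and -11.76 with none. That of MYH2 (2.27) was 2.75 after median-ratio scaling, 2.82 after trimmed-mean scaling and 2.38 with TPM. That of MYH1 (1.20) was 1.62 and 1.68 under those scalings and 1.58 without a pseudocount, and 0.97, under 2-fold, with a pseudocount of 1. These shifts follow from the construction of each setting. The shares among the 3 genes stayed within their counting intervals by reads or after thinning. Genes higher in 30M went from 1665 to 698 at 4-fold and 2581 with the median ratio, and genes lower from 4167 to 1319 and 2714. Ranks of each gene by reads and by RPKM differ and are given with its values. No paired analysis was possible because there was a single pooled library per stage. Leaving out a replicate could not be done for the same reason. Depth limits the values of ENSBTAG00000009702 in 30M (23 reads) and of MYH1 in Emb135 (98 reads).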

Other observations

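The models of 5500 to 6300 nt with a stage difference of 16-fold or more were looked at after the values were seen. Besides ENSBTAG00000009702, the lower ones included the model with the highest RPKM of this length in Emb135. It is 6109 nt long. Its RPKM was 748.3 in Emb135 from 81078 reads, against 7.54 in 30M from 920 reads, 99.2 times as high in the embryo. Another, of 5933 nt, had RPKM values of 150.7 (Emb135) and 7.07 (30M). The higher ones were ENSBTAG00000009703, a model of 5868 nt whose RPKM was 3.42 in Emb135 against 144.8 in 30M, and a model of 6012 nt with 1.28 against 61.8. The model of 5868 nt was read over 46.11% of its length in Emb135 from 356 reads, where even placement would cover 99.6%, and over 97.17% in 30M.

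ENSBTAG00000009702 and ENSBTAG00000009703 carry consecutive identifiers and have models of 5934 and 5916 nt. The first went from an RPKM of 675.0 to 0.194 between Emb135 and 30M, and the second from 240.2 to 7299. In 30M the ratio of the second to the first was 37607 (interval 25063 to 59326). The numbers of identifiers give no name and no position, and how the 2 models lie in the genome was not analysed here.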
